A study of Sus scrofa with 10 samples.

Results

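The CYP2C genes of the pig encode cytochromes P450 of the hepatocyte endoplasmic reticulum. Enzymes of this subfamily oxidise drugs and steroids, and they turn arachidonic and linoleic acid into epoxy fatty acids. They take electrons from the reductase POR, and in other mammals their transcription responds to HNF4A and to the xenobiotic receptors PXR and CAR. The genes of this subfamily lie in a cluster and are similar in sequence, so a short probe can read several of them.

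The members followed in liver were CYP2C33, CYP2C34, CYP2C36, CYP2C42 and CYP2C49. A probe set, the group of short oligonucleotides that the array reads as 1 transcript, was taken if the platform annotation gave it any of these symbols. This gave 7 of the 23999 porcine probe sets. Of these, 6 carried 1 symbol, and 4 of the 5 genes had a probe set of their own, as 6765 genes on the array did. CYP2C34 was covered only by a probe set that the annotation assigns jointly to CYP2C49, CYP2C36, CYP2C34 and CYP2C32 (Ssc.26321.1.S1_s_at), which was kept apart and is called the shared probe set here. The letters S1 and A1 in the names tell the probe sets of a gene apart. On the Sscrofa11.1 assembly of RefSeq the genes lie on 1 chromosome in the order CYP2C36, CYP2C34, CYP2C32, CYP2C49, CYP2C42 and the pseudogene CYP2C91, with 1 to 3 other annotated genes between neighbours up to CYP2C42. CYP2C33 lies further along, beyond 73 other annotated genes and the locus LOC100739741, which has CYP2C33 as a synonym. The arrays are not tied to that assembly, so no positions are given.

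Liver RNA of 10 females of an Iberian x Landrace backcross, bred by mating F1 boars to Landrace sows, was hybridised to GeneChip Porcine arrays, 1 array per animal. The animals were reared and fed alike, none was treated, and they were slaughtered at a similar age. The H group (5 animals) and the L group (5 animals) lay at the high and low extremes of intramuscular fatty acid composition, on the first principal component of muscle and carcass traits. The authors report more polyunsaturated fatty acids in the muscle of H, among them linoleic and arachidonic acid. For L they report more saturated and monounsaturated ones. Some animals had a sib in the opposite group. The groups are extremes of 1 population, not breeds or treatments.

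All values are log2 intensities. The lowest value, 2.19 on each array, is called the floor here, and a value there is only an upper bound. Signals can also stand still above it, as 13 of the tested probe sets held a single value on all arrays. Whether a probe set has a higher floor of its own was not tested. A value above 2.19 is thus not always a measured signal. The 15 tested hepatocyte markers of 18 listed averaged 14.50 to 14.76 in H and 14.57 to 14.68 in L. Markers of Kupffer cells and macrophages averaged 9.31 to 9.98 in H and 9.46 to 9.87 in L (7 tested of 12 listed). The tested markers of endothelium (4 of 10), stellate cells (8 of 11), bile duct cells (2 of 8) and blood (2 of 16) also overlapped between the groups, and VWF, KDR, KRT19, SOX9, CD3E and S100A8 lay within 0.5 of the floor in all animals. In bulk liver a lower value from fewer hepatocytes and from less RNA per cell cannot be told apart.

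CYP2C33 (Ssc.955.1.S1_at) was bright and nearly level in all livers. It measured 14.44, 14.60, 14.48, 14.63 and 14.40 in H1 to H5, and 14.57, 14.52, 14.77, 14.67 and 14.74 in L1 to L5. The animals with the 3 highest values were all L (L3, L5 and L4) and those with the 3 lowest were all H, while H2 and H4 overlapped with L1 and L2. Over the 10 animals the SD was 0.126, and 87.5% of the 11756 probe sets tested had a larger SD. The brightest probe set of each array lay at 15.86 or above, over every value of CYP2C33. Whether the signal of CYP2C33 itself was compressed at this brightness was not tested.

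CYP2C49 (Ssc.206.1.S1_at) fell into separate ranges. In H1 to H5 it measured 12.44, 14.002, 13.68, 13.45 and 12.34, and in L1 to L5 13.71, 11.81, 11.55, 12.39 and 12.31. H2, L1, H3 and H4 lay at 13.45 or above, and the other 6 animals at 12.44 or below. The gap of 1.01 between these ranges was wider than either of them, 0.55 above and 0.88 below. The upper range thus held 3 of 5 H animals and 1 of 5 L animals.

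The shared probe set showed the same animals in its upper range. It measured 11.14, 12.91, 13.19, 13.94 and 11.06 in H1 to H5, and 12.46, 10.54, 10.36, 11.28 and 11.12 in L1 to L5. A gap of 1.18 set H2, H3, H4 and L1 above the other 6 animals. It was wider than the lower range, 0.92, but not than the upper, 1.48. The annotation lets the shared probe set read CYP2C49 too, so these are not independent readings.

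CYP2C36 was read by a pair of probe sets with very different signals. One of them (Ssc.16261.1.A1_at) lay at the floor, 2.19, in all 10 animals. The other (Ssc.16261.1.S1_at) measured 4.13, 4.72, 6.28, 11.17 and 2.53 in H1 to H5, and 5.31, 3.65, 2.53, 5.28 and 4.77 in L1 to L5. H4 stood 4.89 above the next animal, H3, and H5 and L3 lay within 0.5 of the floor. The SD of 2.47 over the animals was exceeded by only 14 of the 11756 probe sets tested (0.119%).

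CYP2C42 also had a pair of probe sets. One (Ssc.16124.1.A1_a_at) lay between 2.25 and 2.36 in all animals, next to the floor. The other (Ssc.16124.1.S1_a_at) measured 7.12, 7.18, 7.71, 8.23 and 7.91 in H1 to H5, and 6.34, 7.78, 9.77, 8.97 and 8.91 in L1 to L5. The L animals held the lowest value (L1) and the 3 highest (L3, L4 and L5), and the H animals lay between them. Because both A1 sets lay next to the floor, the agreement of probe sets within a gene could not be judged for CYP2C36 or CYP2C42.

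**Figure D1:**
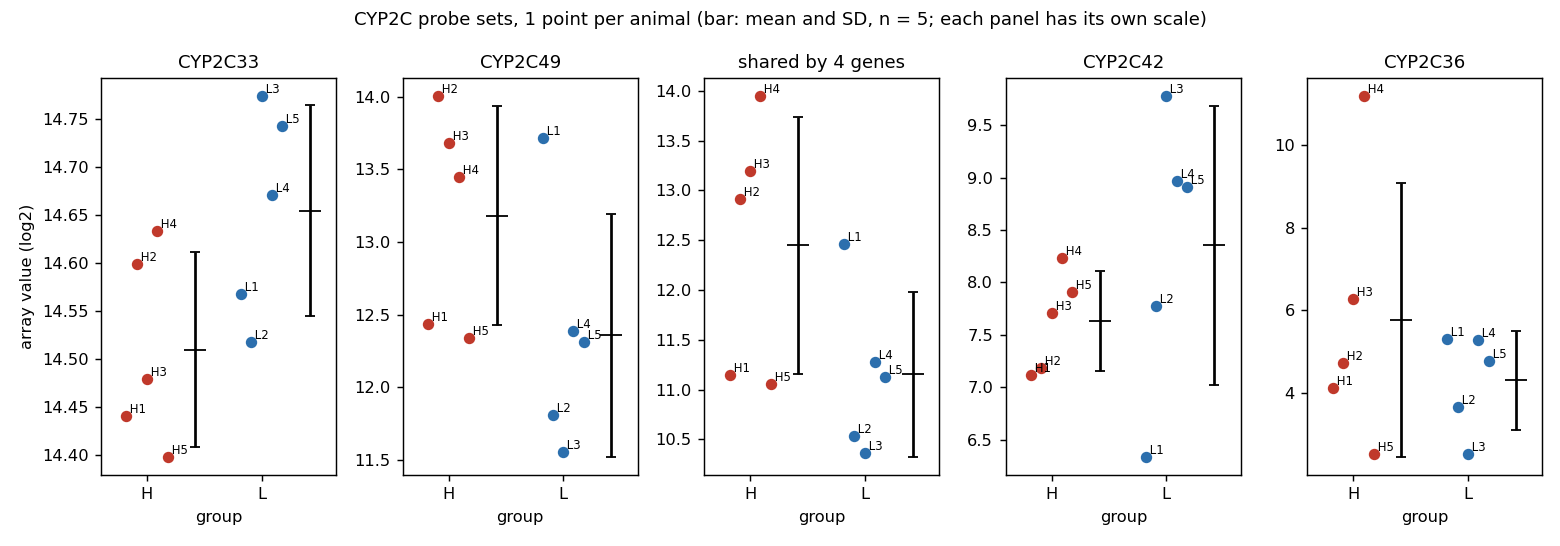
Array value (log2, y axis, with its own scale in each panel) of the 5 tested CYP2C probe sets in the H and L groups (x axis), 1 point per animal, with the group mean and SD beside the points (n = 5 each). H2, H3, H4 and L1 form the upper range of CYP2C49 (13.45 or above) and of the shared probe set, and H4 stands alone for CYP2C36 at 11.17.

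Of these probe sets, 4 varied more between animals than most of the array. The SD was 0.866 for CYP2C49, 1.02 for CYP2C42 and 1.23 for the shared probe set, against a median of 0.238 over the 11756 tested. The share of tested probe sets with a larger SD was 1.87%, 1.09% and 0.544%, respectively. CYP2C33 was the exception among the 5.

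**Figure D2:**
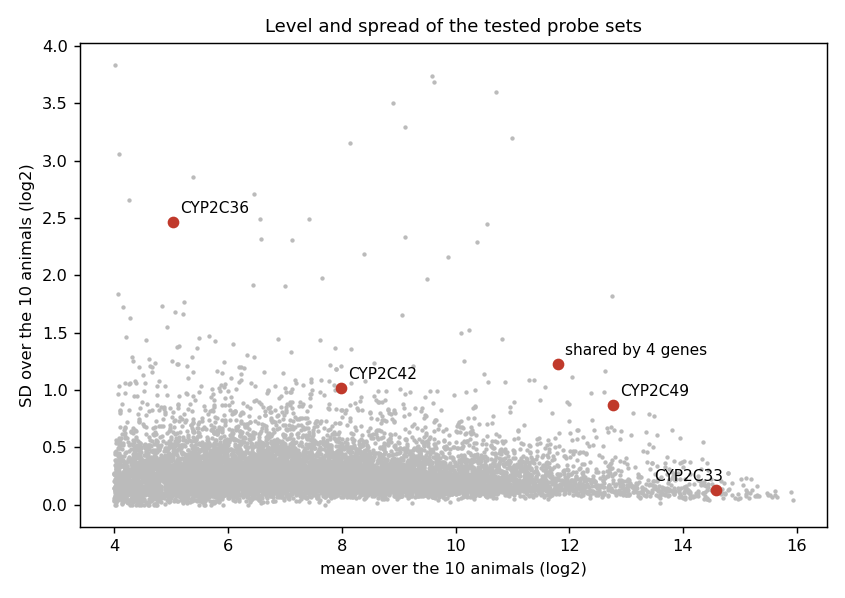
Mean (x axis) and SD (y axis) over the 10 animals, both log2, of the 11756 tested probe sets (grey) and of the 5 tested CYP2C probe sets (red). CYP2C36, CYP2C42, CYP2C49 and the shared probe set lie above most of the cloud, and CYP2C33, with an SD of 0.126, lies low, within the cloud.

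The comparison of H with L asks whether the livers of animals with extreme muscle fatty acid profiles differ in these enzymes. None of the 5 tested CYP2C probe sets passed the test, and none of the 11756 probe sets did (percent called 0, limma, adjusted p under 0.05). At an unadjusted p under 0.05 there were 0 of the 5, against 3.09% of all probe sets tested. The 2 A1 sets had means under 4 and were not tested.

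CYP2C49 was higher on average in H, at 13.18 ± 0.75 against 12.36 ± 0.83 in L (mean log2 value ± SD over 5 animals). The log2 difference was 0.83 (standard error 0.45, 95% interval -0.17 to 1.82, limma adjusted p = 0.991; exact permutation test of this probe set, two-sided, p = 0.135). All 5 H animals lay above the L median of 12.31, but only H2 lay above L1. The smallest p that the 252 divisions of 5 against 5 allow is 0.00794.

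The mean of the shared probe set was 12.45 ± 1.29 among the H animals against 11.15 ± 0.83 among the L animals. Its difference of 1.30 (standard error 0.61, 95% interval -0.06 to 2.65, limma adjusted p = 0.991) came with an exact permutation p of 0.0873, and H2, H3 and H4 lay above every L animal.

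For CYP2C36 the mean was 5.77 ± 3.31 among the H animals against 4.31 ± 1.20 among the L animals. The log2 difference was 1.46 (standard error 1.40, 95% interval -1.64 to 4.56, limma adjusted p = 0.991; exact permutation p = 0.484). H4 decided this value. Without it the difference was 0.11, and the medians of the groups were 4.72 in H and 4.77 in L. Without H5 it was 2.27, and with array weights 0.87.

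The mean of CYP2C42 was lower in the H animals, 7.63 ± 0.48, than in the L animals, 8.35 ± 1.33. The difference was -0.72 (standard error 0.56, 95% interval -1.98 to 0.53, limma adjusted p = 0.991; exact permutation p = 0.302). It ranged from -1.23 without L1 to -0.37 without L3, the L animals with the lowest and the highest value.

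CYP2C33, too, had the lower mean in H, 14.51 ± 0.10 against 14.65 ± 0.11. The difference of -0.14 (standard error 0.08, 95% interval -0.33 to 0.04, limma adjusted p = 0.991) had the smallest exact permutation p of the 5 probe sets, 0.0635. All 5 H animals lay below the L median of 14.67.

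**Figure D3:**
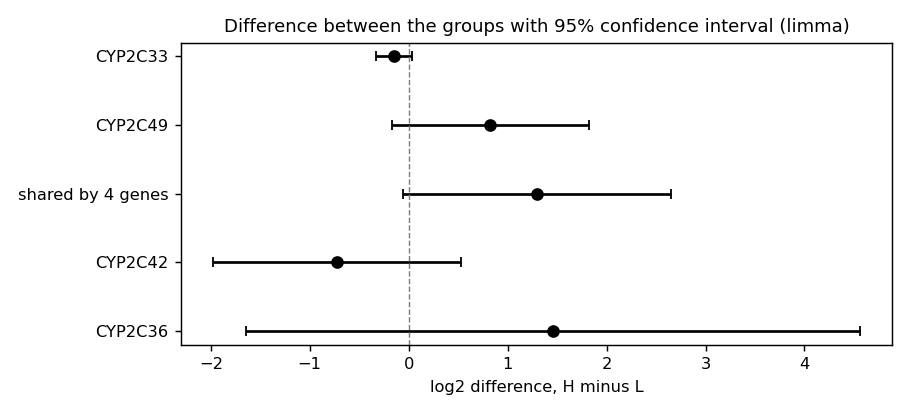
Log2 difference H minus L (x axis) of the 5 tested CYP2C probe sets (y axis), with the 95% confidence interval of the limma fit (n = 5 H and n = 5 L). Each of the 5 intervals includes 0, from -0.33 to 0.04 for CYP2C33 to -1.64 to 4.56 for CYP2C36.

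In 4 of the 5 probe sets the log2 difference was at least 0.5 in size, against 2.1% of all probe sets tested, and the same 4 had the large SD given above. CYP2C49, CYP2C36 and the shared probe set lay higher in H, and CYP2C42 and CYP2C33 lay lower. The sign was kept in each of the 99 values computed under other settings. Settings that changed only the filter, the prior or the block could not move these differences, and the rest used the same animals. Single animals moved the unadjusted p. It was under 0.05 for 3 of the 5 without L1 (CYP2C49, CYP2C42 and the shared probe set), 2 without H5 and 1 without H1, and the adjusted p did not pass in any of these fits.

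The control probe sets at the ends of GAPDH, whose 3' minus 5' difference grows as RNA degrades, were highest in L1 at 2.70 and H2 at 2.39. The other 8 animals lay between 1.68 and 2.08, with H3 at 1.70 and H4 at 1.86. Thus the animals high in CYP2C49 included both the highest differences of this control and low ones. With this difference as a covariate the log2 difference of CYP2C49 was 0.87 (unadjusted p = 0.0268) and that of the shared probe set 1.34 (unadjusted p = 0.0475), with limma adjusted p = 0.970 for both. In a second GAPDH control, added after the data were seen, L1 was again the highest at 2.64, but H2, at 2.16, lay below L4, L5 and H1. As a covariate it gave 1.30 for CYP2C49 (unadjusted p = 0.00764), 1.76 for the shared probe set (unadjusted p = 0.0195) and -1.27 for CYP2C42 (unadjusted p = 0.0339), with limma adjusted p = 0.978 for each. The part of RNA quality in the results was not tested further.

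Neighbours of CYP2C49 outside the member list were read beside it, chosen after their values were seen. CYP2C32, the gene before it in the order, measured 6.85, 8.97, 9.74, 8.53 and 7.28 in H1 to H5 and 8.45, 6.65, 7.26, 7.76 and 7.30 in L1 to L5 on its brighter probe set. Its 4 highest animals were again H2, H3, H4 and L1, although no gap set them apart as in CYP2C49. Both CYP2C32 probe sets carry the transcript number of the shared probe set, 26321.1, so they are not independent readings either. Its dimmer probe set (Ssc.26321.1.A1_s_at) lay above the floor in these 4 animals alone, at 3.14 in L1, 3.58 in H3 and 3.83 in H2, and highest in H4.

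The transcribed pseudogene CYP2C91, which on the assembly starts within the span of CYP2C42, ran the other way. It measured 7.23, 4.53, 4.54, 4.04 and 6.71 in H1 to H5 and 5.07, 7.06, 6.54, 7.25 and 7.92 in L1 to L5. The 4 lowest animals were H4, H2, H3 and L1, separated from the others by 1.47. CYP2C42 did not share this split: H2, H3, H4 and L1 spanned 6.34 to 8.23, and H1, H5 and L2 lay among them. Between H and L, CYP2C32 differed by 0.79 and CYP2C91 by -1.36 (standard errors 0.55 and 0.72, limma adjusted p = 0.991 for both).

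**Figure D4:**
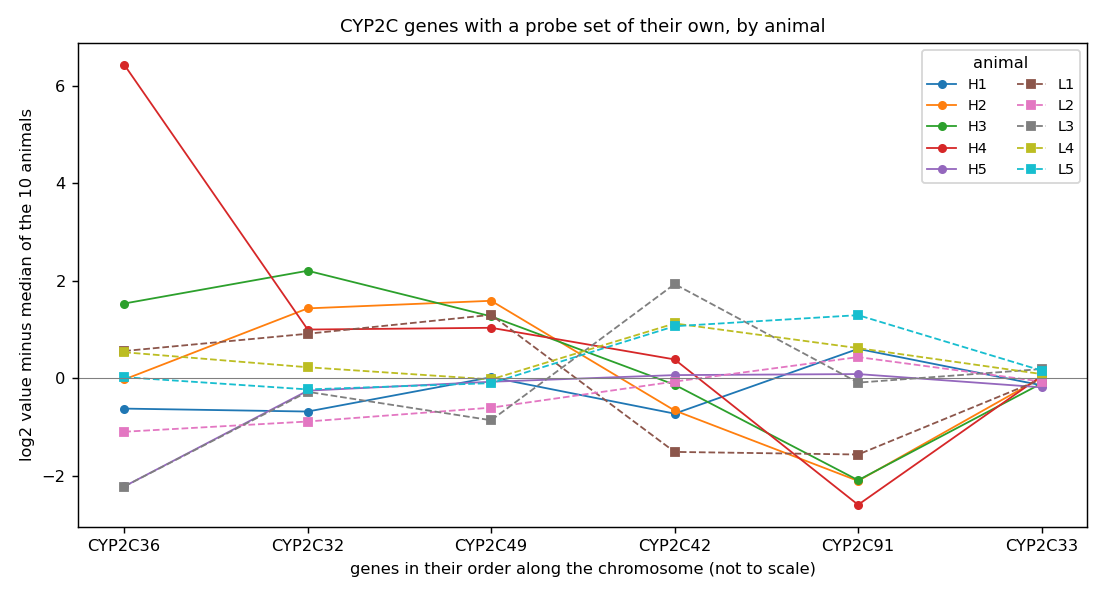
Log2 value of each animal minus the median of the 10 animals (y axis) for the 6 CYP2C genes with a probe set of their own, in their chromosomal order (x axis, not to scale), 1 line per animal. H2, H3, H4 and L1 are the upper 4 at CYP2C32 and CYP2C49 and the lower 4 at CYP2C91, H4 peaks at CYP2C36, and all lines converge at CYP2C33.

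The shared probe set was set against CYP2C49 and CYP2C36. Within each animal its value minus that of CYP2C49 is a difference of log2 values, that is, a ratio of the signals. It does not take the CYP2C49 part out of the shared signal, and the levels themselves cannot be set against each other. This difference lay between -1.29 and -1.09 in 8 animals, although CYP2C49 itself ranged from 11.55 to 14.002 in them. It was -0.49 in H3 and 0.50 in H4, and these were also the animals with the highest CYP2C36. The measure was chosen after the values were seen and has no test. Among the other 8, CYP2C36 ranged from 2.53 to 5.31 with no matching order. CYP2C32 was also highest in H3, followed by H2 and H4. The signals of CYP2C34, CYP2C36 and CYP2C32 cannot be separated within the shared probe set.

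**Figure D5:**
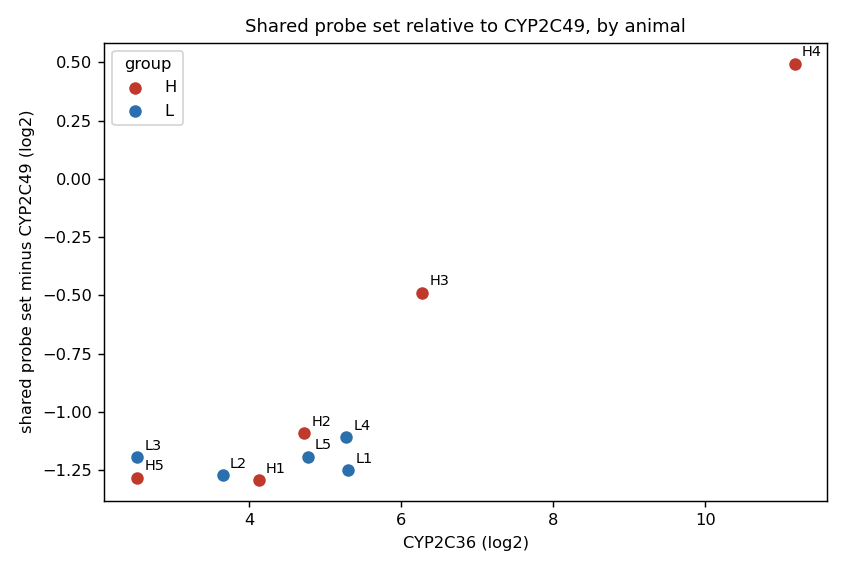
Shared probe set minus CYP2C49 (log2, y axis) against CYP2C36 (log2, x axis). Each point is an animal, and colours show the 5 H and 5 L animals. In the plot 8 animals lie between -1.29 and -1.09, and H3 and H4, with the highest CYP2C36 values, lie above them at -0.49 and 0.50.

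Relations among the members were computed over the animals for the 6 pairs of CYP2C33, CYP2C36, CYP2C42 and CYP2C49. CYP2C33 and CYP2C42 had the largest coefficient over the 10 animals, at r = 0.68 by Pearson's method (p = 0.0320 by permutation, 0.192 after adjustment over the 6 pairs) and rho = 0.67 by Spearman's (p = 0.0388 by permutation, 0.233 adjusted). L3, L4 and L5 had the 3 highest values of both. L3 and H5 lay farthest from the median of CYP2C33, and r without them was 0.66. After the group means were subtracted it was 0.61. Of all pairs of tested probe sets, 5.21% had a coefficient at least this large in size. The pair thus did not pass the correction, except on the residuals of the GAPDH difference, where r was 0.93 (adjusted permutation p = 9e-04). The permutation treated the residuals as interchangeable, which they are not after the fit, so this p is only approximate. L1 had both the highest GAPDH difference and the lowest CYP2C42, so this animal weighs on the fit. The second GAPDH control was not used for correlations.

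The coefficients of CYP2C36 did not pass the test, neither with CYP2C33 (r = 0.13, rho = 0.08; permutation tests, p = 0.754 and 0.841, adjusted p = 0.780 and 0.841) nor with CYP2C42 (r = -0.10, rho = -0.21; permutation tests, p = 0.780 and 0.561, adjusted p = 0.780 and 0.673). Of all pairs, 75.4% and 80.6% had coefficients at least as large in size. Leaving out the 2 most distant animals gave 0.22 without L3 and H5 and -0.02 without H4 and L3, respectively.

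Because CYP2C49 fell into separate ranges, no coefficient over all animals is given for it or for the shared probe set. Within the 6 animals of the lower range its r was 0.56 with CYP2C36, -0.47 with CYP2C42 and -0.41 with CYP2C33 (exact permutation tests, p = 0.210, 0.335 and 0.415, adjusted p = 0.623 for each). Spearman's rho was 0.60, -0.49 and -0.60 (exact permutation tests, p = 0.242, 0.356 and 0.242, adjusted p = 0.483, 0.533 and 0.483). Leaving out the 2 most distant animals on the other gene gave 0.08 without L4 and L3, 0.66 without L3 and H1, and 0.21 without H5 and L3. Each of these rests on only 4 animals, so they cannot tell whether the relations hold without those left out. No coefficient is given for the 4 animals of the upper range.

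The annotation lets the shared probe set read CYP2C49 and CYP2C36 too, so its coefficients with them are not relations between separate genes. Within the same 6 animals the shared probe set followed CYP2C49 with an r of 0.98 (exact permutation test, p = 0.0111, adjusted over 4 pairs p = 0.0444) and a rho of 0.89 (exact permutation test, p = 0.0333, adjusted p = 0.0667). Without L2 or L3 alone, its lowest animals, r was 0.98 and 0.96. Without both it was 0.42, over 4 animals that lay between 11.06 and 11.28 on the shared probe set, so the relation was not seen within that narrow range. With fewer animals the adjusted p did not pass. With CYP2C36 the r was 0.65 and rho 0.89 (exact permutation tests, p = 0.157 and 0.0333, adjusted p = 0.314 and 0.0667), and r was 0.83 over the 4 animals without L2 and L3. After the group means were subtracted r was 0.89 (adjusted exact permutation p = 0.0361), past the threshold. The permutation treated the centred values as interchangeable, which they are not after centring, so this p is only approximate. With CYP2C42 and CYP2C33 r was -0.32 and -0.25, and rho -0.20 and -0.26 (exact permutation tests for r, p = 0.483 and 0.533, adjusted p = 0.533 for both, and for rho, p = 0.714 and 0.658, adjusted p = 0.714 for both).

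The genes outside the family whose pattern over the 10 arrays was most like each member were named as a description, out of 6003 tested probe sets with 1 symbol. For CYP2C33 they were SLC25A20, the mitochondrial carnitine-acylcarnitine carrier, PGD, an enzyme of the pentose phosphate pathway, and DNM1L, which divides mitochondria (r = 0.93, 0.92 and 0.91), with RPP30 at the other end (-0.92). For CYP2C42 they were CD74, the invariant chain of MHC class II, SSR4, a subunit at the protein translocon, and BUD31, a splicing factor (0.91 for each), with ACOX2, a peroxisomal oxidase of bile acid synthesis, at the other end (-0.88). For CYP2C49 the same ranking led to SMNDC1, a splicing factor, ATP2B1, a plasma membrane calcium pump, and LOC102162486, and at the other end to NDUFS1, a subunit of respiratory complex I. The split between its ranges can carry such a ranking, so the coefficients are left out. H2, H3, H4 and L1 were the 4 highest animals for SMNDC1, at 9.47 to 9.56 against 9.29 to 9.37 in the others, and the 4 lowest for NDUFS1, at 9.89 to 9.95 against 10.03 to 10.23. Because the ranking picked both genes on these same arrays, this split is a description and no separate evidence.

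For CYP2C36 the 3 highest coefficients were lower without H4, and the lowest one was nearly kept. TM2D3, GJA4, a gap junction protein, and KPNA1, an importin, had an r of 0.91, 0.91 and 0.88, which was 0.62, 0.71 and 0.26 without H4. KPNA1 was nearly constant, with the same value, 4.13, in most animals and a range from 4.11 in L5 to 4.18 in H4. Its r thus rests on a very small rise in H4. LMAN2, a lectin of the secretory pathway, had an r of -0.96, and -0.90 without H4.

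The other P450 enzymes differed between H and L no more clearly than the CYP2C genes. Of 31 listed in families 1 to 4, 9 were tested, and none passed the test or had an unadjusted p under 0.05 (limma over 4730 genes, percent called 0 after adjustment and 2.64% at an unadjusted p under 0.05). Their median log2 difference was -0.11, against -0.04 over all genes, with 3 above 0 and 6 below. CYP3A22 had the largest difference, 1.61 (standard error 1.05), and lay between 4.42 in L3 and 11.45 in H1. CYP2A19, an enzyme that clears skatole, had a difference of -1.13 (standard error 1.02), and H4, the animal with the highest CYP2C36, measured 7.98 against 12.23 to 14.25 in the others. CYP2E1, the ethanol-inducible enzyme, lay at 14.91 ± 0.29 in H against 15.13 ± 0.03 in L, and H4 was again the lowest at 14.41. CYP3A29, CYP3A39 and CYP3A46, of the subfamily of the main human drug enzyme, differed by 0.14, 0.16 and -0.11. CYP1A1, CYP2D25 and CYP2J34 differed by -0.32, -0.10 and -0.62, none beyond its standard error.

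Partners of the P450 enzymes overlapped between the groups. Of 15 listed electron donors and haem supply genes 10 were tested, and none had an unadjusted p under 0.05. POR, their reductase, measured 10.49 ± 0.38 in H against 10.60 ± 0.43 in L, and cytochrome b5 (CYB5A) differed by -0.02 (standard error 0.11). ALAS1, the first enzyme of haem synthesis, differed by -0.10 (standard error 0.30). The smallest p of the list, 0.0767 unadjusted by limma, was that of HMOX1, the oxygenase that breaks haem down, at -0.32 (standard error 0.16). These genes were chosen after their values were seen. Their median difference was -0.02.

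Of 30 listed receptors and transcription factors 15 were tested, and none passed after adjustment. NR1I2, the gene of PXR, was the only one with an unadjusted p under 0.05 (percent of all genes lower in H at that level 1.84%). It measured 5.92, 5.91, 5.89, 5.69 and 6.02 in H1 to H5 and 6.25, 6.19, 6.10, 6.71 and 6.06 in L1 to L5. The highest H value, 6.02 in H5, lay just below the lowest L value, 6.06 in L5. The share of all genes without overlap between the groups was not computed, so how unusual this separation is cannot be judged. The difference was -0.38 (standard error 0.13, limma unadjusted p = 0.0138, adjusted p = 0.985). HNF4A differed by 0.21 (standard error 0.24), CEBPA by -0.21 (standard error 0.22) and NR3C1, the glucocorticoid receptor, by -0.15 (standard error 0.13), with limma adjusted p = 0.985 for each. RXRA lay within 0.5 of the floor in all animals.

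Of 22 listed targets of PXR and CAR outside the P450 family 13 were tested, with a median difference of -0.10, and none passed after adjustment. SULT1E1, which sulfates oestrogens, was higher in H at an unadjusted p of 0.0424 (percent of all genes higher in H at that level 0.803%). It measured 13.16, 12.64, 12.63, 13.25 and 12.78 in H1 to H5 and 12.33, 12.66, 12.28, 12.31 and 12.91 in L1 to L5, and the groups overlapped. The difference was 0.39 (standard error 0.17, limma adjusted p = 0.985).

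Of 26 listed genes that release or use arachidonic acid and its epoxides 8 were tested, with a median difference of -0.29, 6 of them below 0. PTGS1, a cyclooxygenase, was the only one with an unadjusted p under 0.05 (percent of all genes lower in H at that level 1.84%). It lay between 5.998 in H2 and 6.36 in H3 among the H animals and between 6.36 in L1 and 6.97 in L3 among the L animals, with H3 just below L1. The share of all genes without overlap was not computed, so this separation cannot be judged either. The difference was -0.48 (standard error 0.13, limma unadjusted p = 0.00307, adjusted p = 0.985). EPHX1 and EPHX2, the hydrolases of epoxides, differed by -0.26 (standard error 0.28) and -0.28 (standard error 0.22). FADS1, a desaturase on the path to arachidonic acid, differed by -0.45 (standard error 0.59). ACSL4, which activates arachidonic acid, lay on the other side, at 0.36 (standard error 0.19, unadjusted p = 0.0885 by limma). Apart from PTGS1 these genes were chosen after their values were seen.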

How the data were processed

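The deposited values are log2 intensities per probe set, which the authors obtained from GCOS scans by GCRMA background adjustment and normalization in R. For these programs no version is given in the sources used here. All 10 columns were used as deposited, without further normalization. Of 24123 probe sets, 124 controls were left out. Of the rest, 10069 carried 1 symbol, updated by Entrez ID for 9961, 198 several, which named no gene, and 13732 none. Probe sequences are not given in the sources used here, so no sequence is shown.

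R 4.3.3 with limma 3.58.1 (lmFit and eBayes, two-sided, without covariates) gave the H minus L differences for the 11756 probe sets whose mean reached 4, and for 4730 genes as the mean of such probe sets. P-values were adjusted by Benjamini-Hochberg, and 0.05 was the threshold. The code was tested on simulated data. Single values had an exact permutation test, and correlations 100000 permutations, or exact enumeration below 10 animals (Python 3.11.15, numpy 2.4.6, pandas 2.3.3, scipy 1.17.1; matplotlib 3.10.9). The pairs of CYP2C49 and of the shared probe set had been planned over all animals and were limited to 6 after the gap was seen (at least 2 animals on each side, gap wider than the range of the larger side). For each member the 3 most and the 1 least alike genes by Pearson's r over the 10 arrays were named, of each list up to 4 genes with an unadjusted p under 0.05, of the receptors also NR1I2, HNF4A, RXRA, CEBPA and NR3C1, and every other P450 gene tested. Other names are examples chosen after their values were seen. Members and lists were chosen with earlier results of these data known. Kinship was not modelled. The animal is the replicate, and the number of arrays limits the precision.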

Additional observations from a re-analysis of the deposited data

How the results depend on the processing

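In each of the 20 other settings 0 of the tested CYP2C probe sets and 0 of all probe sets passed the adjusted threshold. The 99 log2 differences of the members kept their sign. Changes of the filter, the prior or the replicate block leave these differences as they were, so only the other settings could change a sign. With single animals left out, the log2 difference lay between 0.62 and 1.16 for CYP2C49, 0.92 and 1.64 for the shared probe set, 0.11 and 2.27 for CYP2C36, -1.23 and -0.37 for CYP2C42, and -0.18 and -0.11 for CYP2C33. CYP2C36 was not tested at a mean of at least 6. The animal number as a replicate block left the difference of CYP2C49 at 0.83 and called 0 probe sets, with 393 at an unadjusted p under 0.05 against 363. The deviations of same-numbered animals had correlations from -0.22 to 0.39. Differently numbered animals were not compared in this way, so these values cannot show whether the numbers pair related animals. Without the filter, the mean over all probe sets of a gene gave 0.73 for CYP2C36 and -0.37 for CYP2C42, since their A1 sets lie next to the floor.

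The relations were less stable. On the GAPDH residuals CYP2C33 and CYP2C42 had an r of 0.93, past the threshold by an approximate p. With groups centred, r turned to 0.052 for CYP2C33 and CYP2C49, 0.019 for CYP2C36 and CYP2C42, and 0.12 for the shared probe set and CYP2C33. It rose from 0.56 to 0.91 for CYP2C36 and CYP2C49. For CYP2C36 and the shared probe set, which can read CYP2C36 too, it rose from 0.65 to 0.89, past the threshold by an approximate p. Without the 2 farthest animals r turned to 0.21 for CYP2C33 and CYP2C49, 0.66 for CYP2C42 and CYP2C49, and 0.53 and 0.47 for the shared probe set with CYP2C33 and CYP2C42. Each of these was computed over only 4 animals. Leaving out single animals gave r from -0.071 to 0.40 for CYP2C33 and CYP2C36, -0.60 to 0.061 for CYP2C33 and CYP2C49, -0.35 to 0.16 for CYP2C36 and CYP2C42, and -0.72 to 0.14 for CYP2C42 and CYP2C49. For the shared probe set it gave -0.44 to 0.28 with CYP2C33 and -0.58 to 0.37 with CYP2C42. The causes were not tested.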
